A study of Mus musculus with 4 samples.

Results

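The genes described here copy the genome and supply its building blocks. They are 40 named genes of DNA replication and deoxynucleotide synthesis, listed by symbol. The list was made with earlier results of these data known. Every probe set (a group of short DNA probes that reads 1 transcript) annotated with 1 of these symbols alone was taken on all 4 arrays. This gave 87 of the 34945 probe sets with a single gene, and they represented 39 of the 40 genes, out of 18193 genes in all. Chaf1a, a subunit of the histone chaperone CAF-1, had no probe set of its own and was skipped. Of the 39 genes, 31 had several probe sets, up to 5 for Mcm3, and 8 had 1.

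Expression was measured in mouse CD4+ helper T cells on Affymetrix arrays, with 1 array for each of 4 groups. The groups were Th1 cultures of C57BL/6J (wild type) cells, Th1 cultures of C57BL6-STAT4<tm1> (STAT4KO) cells, Th2 cultures of C57BL/6J (wild type) cells, and Th2 cultures of B6.129S2©-STAT6<tm1Gru>/J (STAT6KO) cells. STAT4 carries the signal of interleukin-12, which drives Th1 differentiation, and STAT6 carries that of interleukin-4, which drives Th2 differentiation. In every group naive CD4+CD44-CD62L+ cells, sorted from lymph nodes and spleen, spent 3 days on plates coated with antibodies to CD3 and CD28. Th1 cultures received IL-12 at 20 ng/ml and an antibody to IL-4, and Th2 cultures IL-4 at 10 ng/ml and an antibody to IFN-gamma. All cultures were then expanded for 4 days in IL-2 at 50 U/ml, with IL-12 or IL-4 at 10 ng/ml, and on day 7 were restimulated through CD3 and CD28 for 2 h, with IL-12 at 20 ng/ml or IL-4 at 10 ng/ml. The STAT-deficient cultures thus kept the cytokine whose transcription factor the label says was removed. Each gene targeting was a whole-animal one and not confined to T cells. The age of the mice, their number and any pooling behind an array are not given in the sources used here. The wild-type Th1 and Th2 cultures differ in cytokine and blocking antibody together, so these cannot be told apart.

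Before a cell copies its DNA, the origin recognition complex, CDC6 and CDT1 load the MCM helicase onto replication origins. CDC45 and the GINS complex then switch the helicase on, primase and the DNA polymerases copy the strands, and the PCNA clamp, set in place by replication factor C, keeps the polymerases on their template. Most of these genes are transcribed together as cells pass from G1 into S phase, under E2F transcription factors, and activated T cells, which divide fast, express them strongly. In RNA from a whole culture, fewer cells in S phase and less RNA per cell cannot be told apart.

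Levels are given as the deposited log2 values of RMA (robust multi-array average), on which a step of 1 is a 2-fold difference. Each gene was read from its main probe set, the brightest of its probe sets on average, and genes were compared with themselves across arrays, never with each other. A gene counted as measured in a comparison where the brighter array reached 5.82, the median of all probe sets, and as called lower or higher where it also differed by at least 2-fold. With 1 array a group there is no replicate spread and no test, so every value below describes these arrays only.

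The targeted genes gave a mixed check of the labels. The log2 level of Stat4 was 11.45 on the wild-type Th1 array and 9.20 on the Th1 array labelled STAT4KO, against 8.96 on the wild-type Th2 array and 9.90 on the Th2 array labelled STAT6KO. Stat6 was at 10.93 on the wild-type Th2 array and 10.92 on the array labelled STAT6KO, and a dimmer probe set of it was at 8.93 and 8.40. Whether these Stat6 probes lie in the deleted sequence is not given, so this reading neither bears out nor contradicts that label, and the array is called by its label throughout. The array medians ran from 5.63 to 6.01. The actin control probes read the 3′ end above the 5′ end by 0.32 and 0.66 (log2) on the wild-type and STAT4KO-labelled Th1 arrays, and by 0.85 and 2.08 on the wild-type and STAT6KO-labelled Th2 arrays. All 9 measured T cell markers reached the level minimum on every array, with a log2 summed level of 15.80 to 15.98. Summed levels of other lineages were far lower, at 8.04 to 8.49 for 6 B cell markers, 7.38 to 8.85 for 3 CD8 and NK markers and 6.35 to 7.05 for 3 erythroid markers. Those of 8 myeloid and dendritic markers were 9.03 and 9.0 on the wild-type and STAT4KO-labelled Th1 arrays and 9.70 and 8.51 on the Th2 arrays, wild type first. Cd14, Itgam, Ms4a1, Ncr1, Hba-a1 and Klf1 were below the level minimum on every array.

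Wild-type Th1 cells had less RNA of nearly the whole replication set than wild-type Th2 cells. All 39 genes were lower in Th1, and 37 were called lower, with none called higher. Over all 12111 genes measured in this comparison 25.4% were called lower in Th1 and 8.14% higher, and 65.4% had a difference below 0. The median log2 difference, Th1 minus Th2, was −2.04 for the replication genes and −0.37 for all genes. The 2 genes that were not called were Orc1, at −0.99, and Pcna, at −0.06. Some cell type markers and reference genes differed between the wild types too. Of the 9 T cell markers, Cd5 (1.31), Cd3e (1.14) and Cd4 (1.05) were called higher in Th1 and none lower. Adgre1 (−3.26) and Itgax (−1.19), myeloid and dendritic markers, Cd8b1 (−1.13), a CD8 T cell marker, and the reference genes Gusb (−2.32) and Sdha (−1.37) were called lower in Th1, and the myeloid marker Lyz2 (1.39) was called higher. Adgre1 (5.0) and Itgax (5.57) on the wild-type Th1 array and Lyz2 (4.88) on the wild-type Th2 array were under the level minimum. The part of these genes in the result was not tested.

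**Figure D1:**
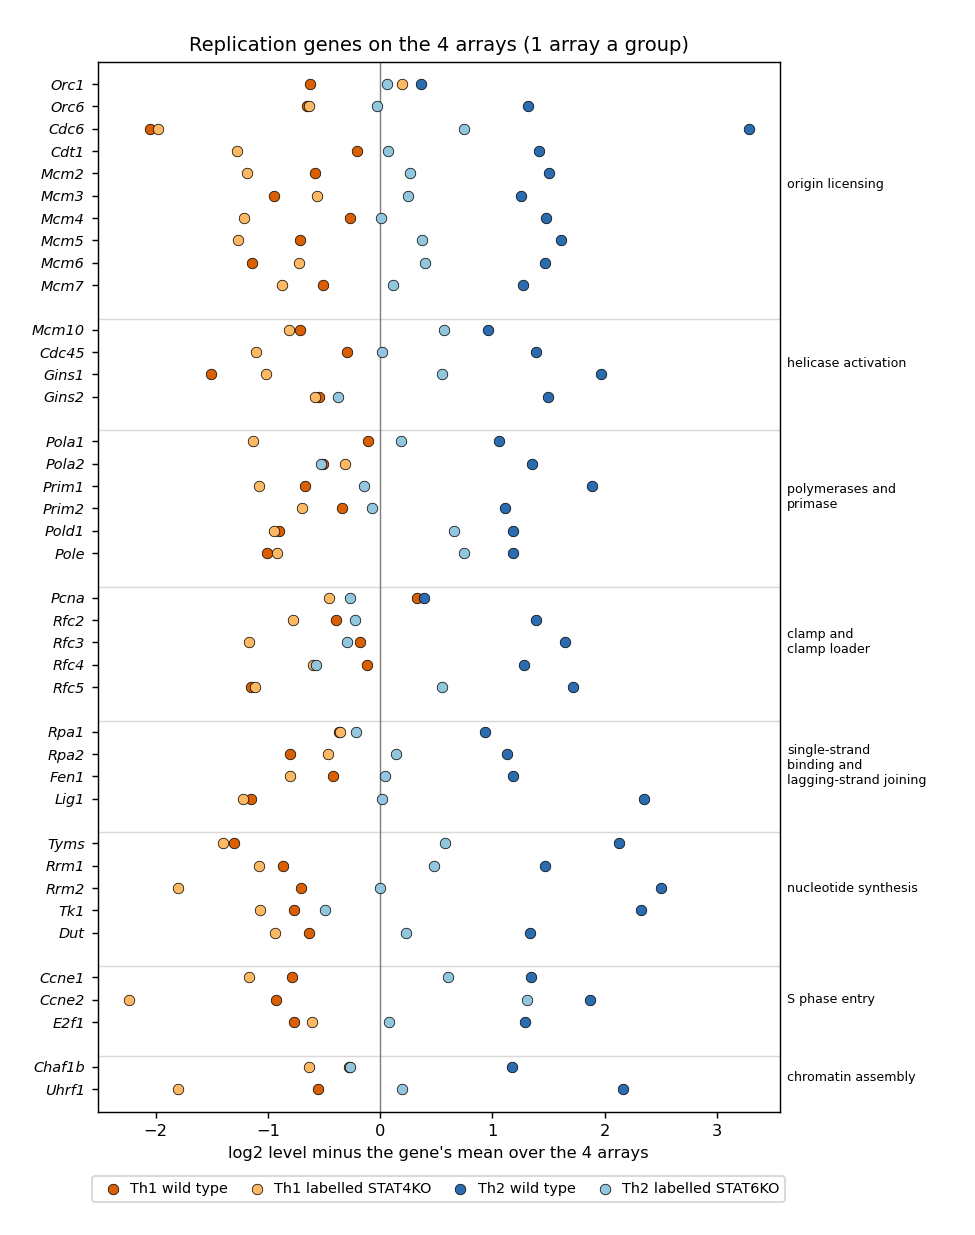
The log2 level of each of the 39 genes on each of the 4 arrays, minus that gene's mean over the arrays (1 point for each array), in 8 role groups. The wild-type Th2 points lie to the right for all 39 genes, with a median of 1.39 above the gene mean, while the Th1 points lie to the left for most genes.

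Origin licensing held the widest gap. Cdc6, the loader of the MCM ring, was at 4.24 on the wild-type Th1 array, 4.31 on the Th1 array labelled STAT4KO, 9.58 on the wild-type Th2 array and 7.04 on the Th2 array labelled STAT6KO. Both Th1 values were under the level minimum and both Th2 values above it. The wild-type difference was −5.34 as read, and at least 3.76 (log2) with the Th1 value set at the level minimum. Cdt1, the partner of CDC6 in loading, was at 10.08, 9.01, 11.70 and 10.36 on the same arrays in the same order, so it was well measured on all of them and differed far less, by −1.61 between the wild types. The 6 subunits of the MCM2-7 ring, the motor of the replicative helicase, were called lower in Th1 as a block. Their wild-type differences lay between −2.60 for Mcm6 and −1.75 for Mcm4, with a median of −2.14. The origin recognition subunit Orc6 was lower by 1.97 on the log2 scale, whereas Orc1, the subunit that binds ATP and recruits CDC6, stood at 6.37, 7.19, 7.36 and 7.05. Its wild-type Th1 value was the low one, and the other 3 arrays lay close together.

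The 4 genes of helicase activation were all called lower in wild-type Th1 cells, with a median of −1.86. Gins1, a subunit of the GINS complex, was at 6.04 on the wild-type Th1 array, 6.53 on the STAT4KO-labelled one, 9.52 on the wild-type Th2 array and 8.10 on the STAT6KO-labelled one. The wild-type difference was −3.49, close to that of Lig1, and here too both Th1 arrays lay below both Th2 arrays. Gins2 of the same complex differed by −2.04, Cdc45, which completes the active helicase, by −1.68, and Mcm10, which helps to start unwinding, by −1.67.

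All 6 polymerase and primase genes were called lower in wild-type Th1 cells, with a median of −1.98. Prim1, the catalytic primase subunit that lays down the RNA primers, was at 8.02, 7.61, 10.58 and 8.55 on the wild-type Th1, STAT4KO-labelled Th1, wild-type Th2 and STAT6KO-labelled Th2 arrays. The wild-type Th2 array stood alone, and the other 3 spanned less than a log2 unit. The catalytic subunits of the main copying enzymes, Pole (polymerase epsilon, leading strand) and Pold1 (polymerase delta, lagging strand), differed by −2.20 and −2.09. Pola1 and Pola2, the catalytic and accessory subunits of the polymerase alpha that works with primase, differed by −1.17 and −1.86, and Prim2, the large primase subunit, by −1.45.

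The clamp and its loader did not move alike. Rfc2, Rfc3, Rfc4 and Rfc5, the small subunits of replication factor C, were all called lower in wild-type Th1 cells, between −2.88 and −1.41. Rfc5, with the widest gap, was at 7.34, 7.38, 10.21 and 9.05 on the arrays in the order used above, so both Th1 values were nearly the same and both Th2 values higher. Pcna, the clamp itself, was at 13.95, 13.17, 14.02 and 13.36. It was among the brightest probe sets of the arrays, between the percentiles 99.4 and 99.7 of each. Its wild-type values were within 0.06 of each other, and both arrays labelled KO were lower than their wild type, with differences of −0.78 in Th1 and −0.65 in Th2.

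The single-strand binding and lagging-strand genes were all called lower in wild-type Th1 cells. Lig1, the ligase that joins Okazaki fragments, was at 8.19 on the wild-type Th1 array, 8.12 on the STAT4KO-labelled one, 11.69 on the wild-type Th2 array and 9.36 on the STAT6KO-labelled one. The Th1 arrays were alike and the wild-type Th2 array was 11.3-fold above its Th1 counterpart. Fen1, the nuclease that trims the fragments, differed by −1.60. Rpa1 and Rpa2, subunits of the protein that coats single-stranded DNA, differed by −1.29 and −1.93.

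Nucleotide synthesis had the largest median of the 8 role groups in this comparison, −3.10 over 5 genes, all called lower in wild-type Th1 cells. It was −2.34 with Tyms at its lower bound, given next, and still the largest. Tyms, thymidylate synthase, which makes dTMP from dUMP, was at 3.99 on the wild-type Th1 array, 3.89 on the STAT4KO-labelled one, 7.42 on the wild-type Th2 array and 5.87 on the STAT6KO-labelled one. Both Th1 values were far under the level minimum, so the wild-type difference of −3.44 as read is at least 1.60 with the Th1 value set at the level minimum. Rrm2, the small subunit of ribonucleotide reductase and its cell-cycle controlled part, was at 9.0, 7.91, 12.21 and 9.71. Tk1, thymidine kinase, which salvages thymidine, was at 7.34, 7.04, 10.43 and 7.62. For both genes the wild-type Th2 array was far above the other 3, and for Tk1 these 3 lay within 0.58 of each other. Rrm1, the large reductase subunit, differed by −2.34, and Dut, which removes dUTP, by −1.96.

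Among the genes of S phase entry Ccne2, a cyclin that activates CDK2, was at 5.20 on the wild-type Th1 array, 3.89 on the STAT4KO-labelled one, 8.0 on the wild-type Th2 array and 7.44 on the STAT6KO-labelled one. Both Th1 values were under the level minimum, so the wild-type difference of −2.80 as read is at least 2.19. Ccne1, the other E cyclin, differed by −2.13 between the wild types and E2f1, the transcription factor of the G1 to S switch, by −2.06. Of the chromatin genes, Uhrf1, which carries DNA methylation across replication, was at 8.19, 6.95, 10.91 and 8.94, with the STAT4KO-labelled array lowest and the wild-type Th2 array highest. Chaf1b, the middle subunit of CAF-1, differed by −1.44.

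Since the set moved together in this comparison, the promoters were read for E2F-type letters. RefSeq sequence (GRCm38.p6) from 250 bases before to 50 after the start was at hand for 33 of the 40 genes. The words searched were TTTCGCGC, TTTGGCGC, TTTCCCGC and GCGGGAA, on both strands. The last of these overlaps the reverse complement of TTTCCCGC. At least 1 of the 4 words was found in 18 of the 33 genes, or 54.5%, and in 6.10% of the 27025 genes of the table. The member promoters were also richer in G and C, with a median of 61.3% against 52.7%, and all words searched are rich in G and C; the part of this in the count was not tested. CCAAT, searched the same way, was found in 57.6% of the member genes and 41.1% of all genes. The 4 stretches below show the 250 bases before the start, 5′ to 3′ on the gene's strand, for 3 genes with a wide wild-type gap and a match there and for Tyms, with a wide gap and none. Capitals mark the matched word on whichever strand it lies. The stretches are Cdc6 at chr11:98907901-98908150 (plus strand), Prim1 at chr10:128014965-128015214 (plus strand), Uhrf1 at chr17:56303087-56303336 (plus strand) and Tyms at chr5:30073626-30073875 (minus strand).
Cdc6: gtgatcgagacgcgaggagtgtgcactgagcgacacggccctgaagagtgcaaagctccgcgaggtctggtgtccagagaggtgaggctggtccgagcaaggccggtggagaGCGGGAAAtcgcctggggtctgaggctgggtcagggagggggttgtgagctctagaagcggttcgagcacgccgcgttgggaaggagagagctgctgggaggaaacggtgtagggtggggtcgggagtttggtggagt
Prim1: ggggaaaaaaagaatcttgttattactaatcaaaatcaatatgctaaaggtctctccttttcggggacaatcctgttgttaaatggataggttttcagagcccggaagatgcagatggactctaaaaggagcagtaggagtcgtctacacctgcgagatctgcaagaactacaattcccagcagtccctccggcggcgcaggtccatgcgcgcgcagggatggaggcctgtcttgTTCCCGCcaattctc
Uhrf1: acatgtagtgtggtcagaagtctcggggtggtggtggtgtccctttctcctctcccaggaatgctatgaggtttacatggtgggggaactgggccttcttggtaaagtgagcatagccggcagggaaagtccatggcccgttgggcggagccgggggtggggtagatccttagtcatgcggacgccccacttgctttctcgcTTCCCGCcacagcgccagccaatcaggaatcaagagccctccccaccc
Tyms: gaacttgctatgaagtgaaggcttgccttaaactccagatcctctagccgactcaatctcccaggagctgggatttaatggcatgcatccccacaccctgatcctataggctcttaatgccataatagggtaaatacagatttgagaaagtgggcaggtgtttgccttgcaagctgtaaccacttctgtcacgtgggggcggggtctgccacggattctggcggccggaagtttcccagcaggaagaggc
In Cdc6 the word GCGGGAAA began 138 bases before the start. In Prim1 the word TTCCCGC began 15 bases before the start and in Uhrf1 the same word began 48 bases before it. Genes with and without a word had close medians. The median wild-type difference was −2.09 over the 17 measured genes with a word and −1.97 over the 15 without, and in the Th2 cultures labelled STAT6KO against wild type the medians were −1.24 and −1.21. Pcna, Tk1 and Rrm2 also had no word in this window, which says only that these letters were not there.

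In the Th2 cultures, every replication gene was lower on the array labelled STAT6KO than on the wild-type array, 39 of 39, where 65.7% of all genes were below 0. The call was made for 29 of the 39, all lower, against 19.5% of 11490 genes called lower and 7.01% called higher. The median difference was −1.24, and −0.30 for all genes. The 3 largest differences were those of Tk1 (−2.81, a 7.04-fold lower level), Cdc6 (−2.54) and Rrm2 (−2.50), whose levels on all 4 arrays are given above. Tk1 went from 10.43 to 7.62, which brought it near the Th1 arrays, while Cdc6 stayed far above them at 7.04.

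The roles differed in how completely they were called in this comparison. All 6 MCM2-7 genes were called, within a narrow range from −1.47 (Mcm4) to −1.01 (Mcm3), and Orc6 and Cdt1 were both at −1.34. All 4 clamp loader genes were called, from −1.94 (Rfc3) to −1.16 (Rfc5). Both chromatin genes were, Uhrf1 at −1.98 and Chaf1b at −1.44. Among the polymerase and primase genes, Prim1 at −2.03, Pola2 at −1.88 and Prim2 at −1.18 were called. Pola1 at −0.88, Pold1 at −0.53 and Pole at −0.44 were not. For Pold1 this rests on the main probe set, since a second one, at 9.51 in wild-type Th2 and 7.79 on the array labelled STAT6KO, gave −1.72. Of the 3 genes of S phase entry only E2f1 was called, at −1.21, with Ccne1 at −0.74 and Ccne2 at −0.56. Mcm10 was at −0.38, against −1.87 to −1.38 for the other 3 genes of helicase activation. Rpa2, at −0.99, and Rrm1, at −0.98, lay just short of the 2-fold limit, and Mcm3, at −1.01, just past it.

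Other features of the array labelled STAT6KO moved with these differences. Its actin control probes read 2.08 between the 3′ and 5′ ends against 0.85 on the wild-type Th2 array, and the Gapdh ones 0.77 against −0.00. Of the 5 myeloid and dendritic markers measured in this comparison 4 were called lower there, Adgre1 at −2.33, Itgax at −1.73, Fcgr3 at −1.59 and Flt3 at −1.51, as were the CD8 T cell marker Cd8b1 at −2.07 and the reference gene Actb at −1.52. The B cell marker Cd22 was called higher, at 1.04. Itgax, Fcgr3 and Flt3 were under the level minimum on the array labelled STAT6KO, and Cd22 on the wild-type Th2 array. The part of these features in the result was not tested.

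In the Th1 cultures, the array labelled STAT4KO differed little from wild type in these genes. Of 36 genes measured, 4 were called lower and none higher, against 5.34% of 12608 genes called lower and 6.18% called higher. The 4 were Uhrf1 at −1.25, Rrm2 at −1.09, Cdt1 at −1.08 and Pola1 at −1.03. Rfc3, 6.91 in wild type and 5.92 on the array labelled STAT4KO, lay just short of the limit. The median of the 36 was −0.33, with 25 below 0, while the median of all genes was 0.13 and 41.8% of genes were below 0. At the upper end, Orc1 was 0.83 above wild type, Gins1 0.49 and Mcm6 0.42. Mcm6 stood at 9.21, 9.63, 11.82 and 10.75 on the wild-type Th1, STAT4KO-labelled Th1, wild-type Th2 and STAT6KO-labelled Th2 arrays, so that its Th1 values were close together beside the Th2 ones. The MCM2-7 ring itself was split on the main probe sets, from −0.94 for Mcm4 to 0.42 for Mcm6, with none called. Which genes were called rests on the probe set read. Another measured one gave −2.07 for Rfc3, −1.48 for Mcm3, −1.23 for Mcm4 and −1.16 for Prim1, all past the limit, and 0.67 for Mcm2. Of the called genes, others fell short of it for Rrm2 (−0.75 and −0.46), Cdt1 (−0.46) and Uhrf1 (−0.32). Cdc6, Tyms and Ccne2 were under the level minimum on both Th1 arrays and were not measured in this comparison.

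The sign of the replication gene median in Th1 depended on how the arrays were put on 1 scale. Each time this median stayed below that of all genes. Centring on the array medians gave 8 genes called lower and a median of −0.57, quantile normalization 5 and −0.28, and loess 5 and −0.32, where 8.92%, 6.37% and 6.00% of all genes were called lower. Centring on the 18 hybridization control probe sets, which carry spiked-in RNA, gave 0 called lower, 1 called higher and a median of 0.05, with 22 genes above 0. Of all genes 2.64% were called lower and 18.5% higher under it. The split of all called genes went with the scaling, from 53.7% higher as deposited to 24.8% with median centring and 87.5% with the hybridization controls. All genes had a median of 0.13 as deposited, −0.15 with median centring, 0.07 with quantile normalization and 0.02 with loess. With the hybridization controls it was 0.53. In the Th2 cultures the replication gene median did not change sign. The count called lower on the array labelled STAT6KO was 26 with median centring, 21 with quantile normalization, 21 with loess and 31 with the hybridization controls. The matching shares of all genes were 15.6%, 12.3%, 13.7% and 22.9%. Of all called genes 26.5% were higher as deposited and 36.0%, 43.4%, 40.9% and 20.1% under these scalings. Between the wild types the counts were 37, 32, 33 and 38 genes lower in Th1. The matching shares of all genes called lower were 25.1%, 14.1%, 16.1% and 40.6%, and the share of calls that were higher went from 24.3% as deposited to 24.9%, 44.9%, 39.3% and 8.89%.

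**Figure D2:**
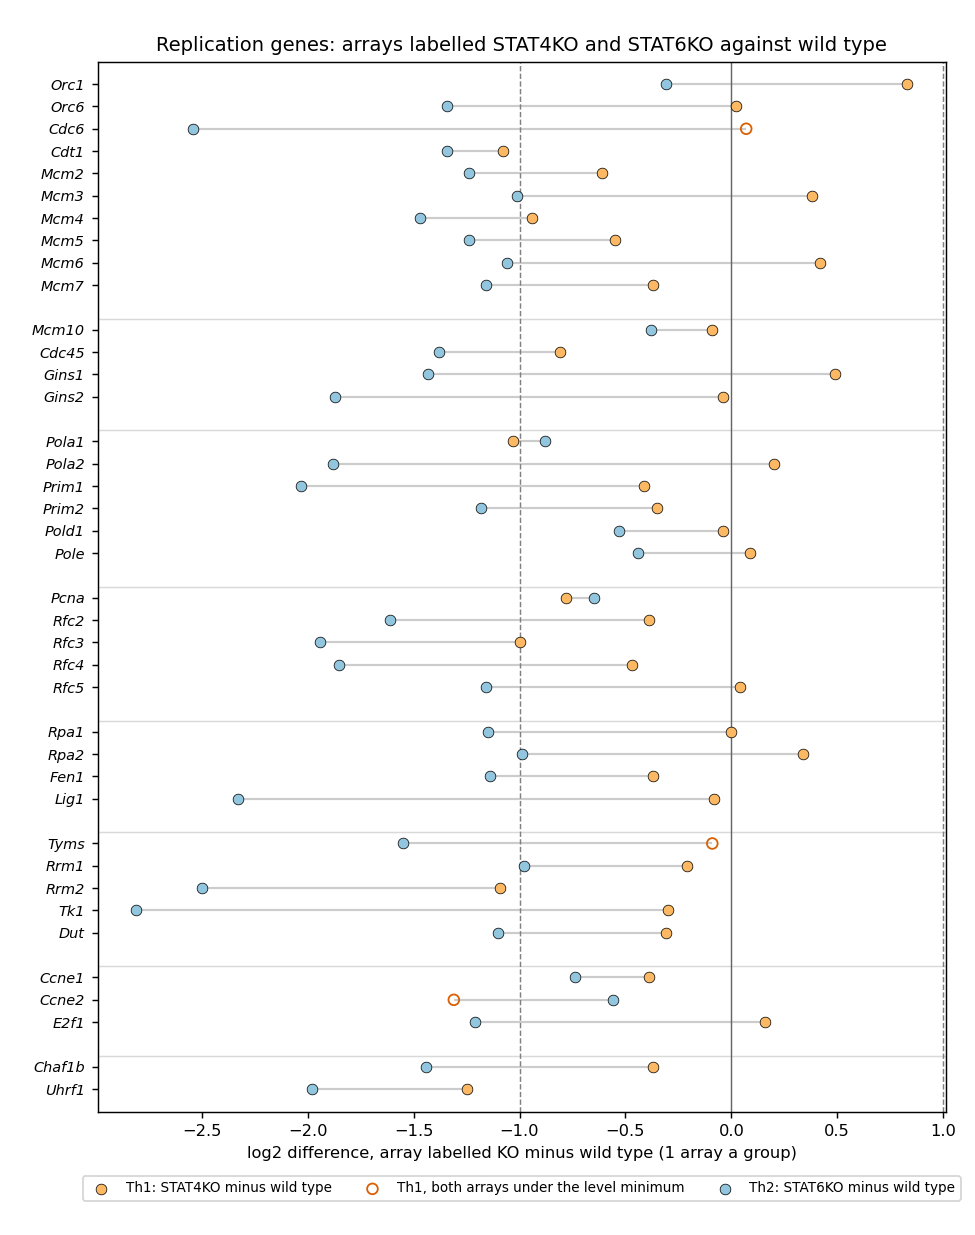
The log2 difference of each of the 39 genes between the array labelled STAT4KO and wild-type Th1 (orange) and between the array labelled STAT6KO and wild-type Th2 (blue), with open circles for 3 genes under the level minimum on both Th1 arrays. Dashed lines mark the 2-fold limits. The Th2 points lie left of 0 for all 39 genes and past the limit for 29, while the Th1 points spread on both sides of 0.

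These 2 comparisons share no array. Of the 36 genes measured in both, 25 had the same sign, 69.4%, against 52.2% of 10951 genes. All 36 were below 0 in Th2, so these 25 are the genes below 0 in Th1 given above. The share therefore adds nothing to that count, and the genes behind the 52.2% had both signs in each comparison. Cdt1, Rrm2 and Uhrf1 were called lower in both. The 11 genes that were above 0 in Th1 and below 0 in Th2 were Orc1, Orc6, Mcm3, Mcm6, Gins1, Pola2, Pole, Rfc5, Rpa1, Rpa2 and E2f1. None of these 11 was called in Th1, so none was called in opposite directions. The Th1 difference was the larger in 3 of the 36. The correlation over the 36 genes was r = 0.34, a description over genes that are not independent replicates.

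With the STAT factor targeted on both sides, the Th1 culture was still the lower for most genes. Between the array labelled STAT4KO in Th1 and the array labelled STAT6KO in Th2, 21 of 39 were called lower in Th1 and none higher, against 10.3% of 12582 genes called lower and 12.6% called higher. The median was −1.12, with 37 genes below 0, and 0.02 for all genes, of which 49.1% were below 0. The 3 largest differences as read were those of Ccne2 (−3.55), Cdc6 (−2.73) and Uhrf1 (−1.99). Ccne2 and Cdc6 were under the level minimum in Th1, and with that value set at the level minimum their differences were at least 1.62 and 1.22. Uhrf1 was above it on both arrays, but its other probe set, at 6.88 and 6.42, gave 0.45, the opposite direction. Tyms, −1.98 as read, was at least 0.06, so that 20 genes were called lower on these bounds. The genes above 0 were Pola2, at 0.23, and Orc1, at 0.14. Pola2 stood at 7.43 on the wild-type Th1 array, 7.63 on the STAT4KO-labelled one, 9.29 on the wild-type Th2 array and 7.41 on the STAT6KO-labelled one, so that only the wild-type Th2 array was apart. Of the 4 clamp loader genes Rfc4 was near 0, at −0.03, Rfc2 was at −0.56 and Rfc3 at −0.89, and Rfc5, at −1.67, was called. Of the genes of S phase entry 2 of 3 were called (median −1.79, or −1.62 on the bounds), and of those of nucleotide synthesis 4 of 5 (median −1.56, or −1.17 on the bounds). Tk1, at −0.58, was the nucleotide gene that was not called. Other probe sets of the called ones differed less or the other way: 1 of Rrm1 was at 0.80, those of Rrm2 at −0.91 and −0.35 and that of Dut at 0.18. With the mean of each gene's probe sets, 15 genes were called lower, with 13 of the 21 calls kept, and the median of the 39 genes was −0.62. The calls lost were those of Cdt1, Mcm10, Cdc45, Pola1, Tyms, Rrm1, Dut and Uhrf1. Of the polymerase and primase genes Pole (−1.67), Pold1 (−1.59) and Pola1 (−1.32) were called, and Prim1 (−0.94), Prim2 (−0.62) and Pola2 were not. This too rests on the main probe sets, since the second one of Prim1 was at −1.79 and that of Pold1 at −0.97. That of Pola1 was at 1.30, but under the level minimum on every array. Under other scalings 27 genes were called lower with median centring, 19 with quantile normalization, 19 with loess and 19 with the hybridization controls, where 21.4%, 9.05%, 9.69% and 7.88% of all genes were called lower. Of all called genes 55.1% were higher as deposited and 18.8%, 52.9%, 43.0% and 68.4% were under these scalings. Of the cell type markers and reference genes, Cd4 (1.97), Flt3 (1.46), Actb (1.24) and Lyz2 (1.18) were called higher in Th1 between these arrays. Gusb (−1.25) and Cd3g (−1.12) were called lower. Flt3 (5.03) and Lyz2 (5.27) were under the level minimum on the array labelled STAT6KO. The part of these genes in the result was not tested.

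**Figure D3:**
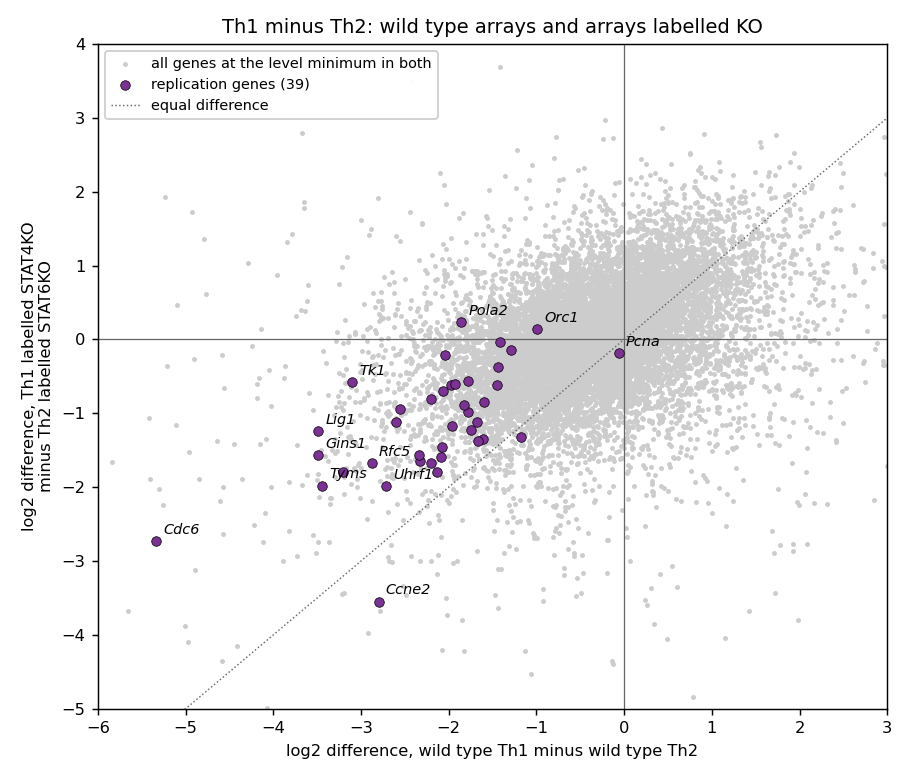
The log2 difference between the wild-type arrays (Th1 minus Th2, horizontal) against that between the arrays labelled KO (vertical), for the 39 replication genes (purple) and 11546 genes measured in both (grey, 55 of them beyond the axes). The dotted line marks equal differences. Of the purple points 37 lie below 0 on both axes, and 36 are nearer 0 on the vertical than on the horizontal axis.

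These Th1 minus Th2 comparisons, between wild types and between the arrays labelled KO, share no array either. Of the 39 genes 37 had the same sign in both, against 64.6% of 11546 genes. All 21 genes called between the arrays labelled KO were called the same way between the wild types. Of the 11546 genes 895 were called the same way, where 2875 of 12582 were called between the arrays labelled KO. Between the wild types all 39 genes were below 0 and 37 were called lower, so both member counts were nearly fixed beforehand. Over the 39 genes r was 0.63, and 0.39 over all genes, again as a description across genes.

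Put in order, the wild-type Th2 array was the highest of the 4 for all 39 genes, against 41.8% of 13147 genes measured on any array. The Th1 array labelled STAT4KO was the lowest for 27, against 21.1% of genes. The wild-type Th1 array was the lowest for 11, against 31.1% of genes. The array labelled STAT6KO was the lowest for 1, Pola2, against 29.4% of genes. The order wild-type Th2, STAT6KO-labelled Th2, wild-type Th1, STAT4KO-labelled Th1 held for 24 genes, and 7.90% of all genes had it. The same order with the Th1 arrays exchanged held for 10, and 11.6% of all genes had it. The neighbours that were closest were the Th1 arrays, whose median deviations from the gene mean were −0.66 for wild type and −0.94 for the array labelled STAT4KO, beside 0.09 for the array labelled STAT6KO and 1.39 for wild-type Th2. The order of these Th1 arrays turned with the scaling: the wild type was the lowest array for 24 genes with the hybridization controls and for 5 with median centring. The wild-type Th2 array was the highest for 39 genes with either, and for 38 with quantile normalization.

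The array labelled STAT6KO therefore lay between the others. Set against wild-type Th1, a comparison added after these values were seen, 35 of 39 genes were higher on it and 14 were called higher, against 15.0% of 11841 genes. None was called lower. The median was 0.71, and 0.05 for all genes. Cdc6, Tyms and Ccne2, among those called, were under the level minimum in wild-type Th1, so their differences hold only as read. Tyms, at 5.87 on the array labelled STAT6KO, was barely above that minimum. The 4 genes below wild-type Th1 were Pola2, Pcna, Rfc3 and Rfc4. This rests on the main probe sets, with narrow gaps for Pola2 (7.43 and 7.41, wild-type Th1 first) and Rfc3 (6.91 and 6.80). Second probe sets of Rfc3 (6.74 and 6.85) and Rfc4 (5.90 and 7.38) were higher on the array labelled STAT6KO. For Rrm1 (8.26 and 6.87) and Uhrf1 (7.20 and 6.42), among others, another probe set was lower there, unlike the main one. Genes above wild-type Th1 numbered 37 with median centring, 31 with quantile normalization and 37 with the hybridization controls.

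Other probe sets of the same genes gave the same picture less evenly. Taken one at a time, 65 of 74 measured probe sets were called lower in wild-type Th1 than in wild-type Th2, against 24.2% of all probe sets, and 52 of 74 were called lower on the array labelled STAT6KO than in wild-type Th2, against 20.4%. Among genes with several measured probe sets, all of a gene's probe sets lay on the same side of 0 in 24 of 25 genes between the wild types and in 25 of 25 for the array labelled STAT6KO. In Th1 for the array labelled STAT4KO this held in 15 of 24, and between the arrays labelled KO in 16 of 26. As a guide to probe noise, the probe sets of 1 gene disagreed over all genes with an SD (log2) of 0.46 for the STAT4KO-labelled array against wild type, 0.61 for the STAT6KO-labelled one, 0.67 between the wild types and 0.78 between the arrays labelled KO. This is a spread of single readings, not the error of a median over the set.

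**Figure D4:**
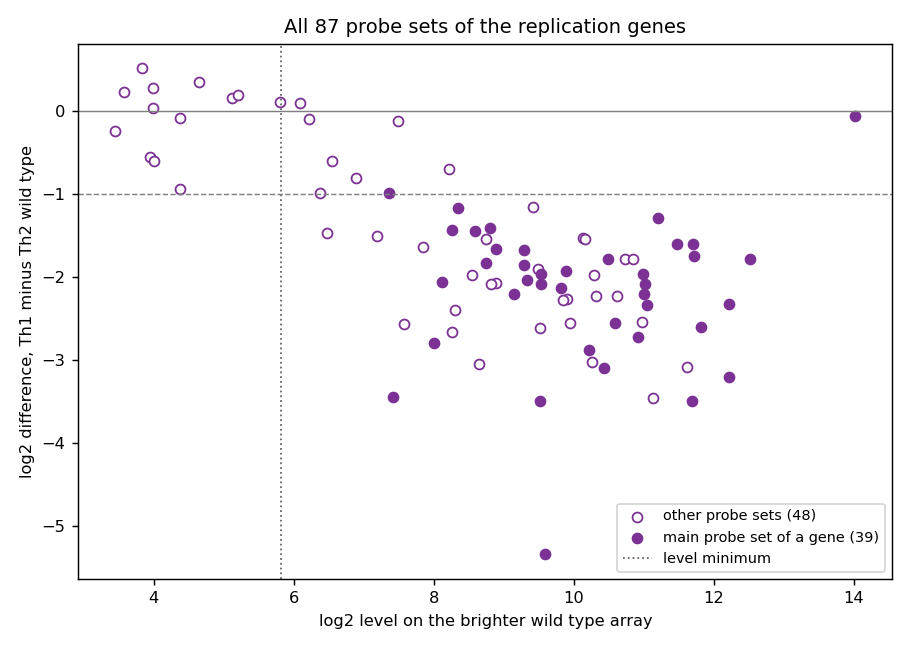
All 87 probe sets of the 39 genes, with the log2 level on the brighter wild-type array (horizontal) against the log2 difference Th1 minus Th2 (vertical). Filled points are the 39 main probe sets and open points the 48 others, the dotted line is the level minimum of 5.82, and the dashed line the 2-fold limit. Points near 0 are mostly left of the dotted line, where probe sets are too dim to read.

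Some genes had probe sets that disagreed widely. For Mcm3, 3 probe sets differed by −2.23 to −1.79 between the wild types, and the other 2 by −0.60 and −0.13. The last of these was 1.98 above 0 between the arrays labelled KO, where the main probe set gave −0.81. Orc1 had a second probe set at 5.60, 5.34, 8.65 and 6.62 on the wild-type Th1, STAT4KO-labelled Th1, wild-type Th2 and STAT6KO-labelled Th2 arrays. Its wild-type difference was −3.05, so the reading that Orc1 was not called rests on the choice of the brighter probe set. The 3 other probe sets of Tyms were under the level minimum on every array and differed by −0.94 to 0.51 between the wild types. For Prim2 the second probe set was at 6.20, 6.31, 7.84 and 5.24, so that its lowest array was the one labelled STAT6KO, while that of the main one was the one labelled STAT4KO.

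Genes that work beside the set were read from 6 lists holding 103 genes, 100 with a probe set. For comparison, 25.4% of all genes were called lower between the wild types and 19.5% for the array labelled STAT6KO. For the array labelled STAT4KO the share was 5.34%, and between the arrays labelled KO 10.3%. Shares called higher were 8.14%, 7.01%, 6.18% and 12.6% in the same order. Of 30 measured other replication factors, such as checkpoint and fork proteins, 24 were called lower in wild-type Th1 than in wild-type Th2 and none higher, with a median of −1.78. The largest differences were those of Cdc7, the kinase that fires origins (−3.34), Clspn, a checkpoint adaptor (−3.24), Dna2, a nuclease and helicase (−3.18), and Pole2, a polymerase epsilon subunit (−3.13). On the array labelled STAT6KO 14 of 30 were called lower than in wild-type Th2, with a median of −0.97, among them Asf1b, a histone chaperone (−2.63), Pole2 (−2.06), Slbp, the histone mRNA binding protein (−1.84), and Clspn (−1.65). On the array labelled STAT4KO, Dna2 was called higher (1.61) and Slbp lower (−1.04) of 29, with a median of 0.15. Dna2 was at 4.73 on the wild-type Th1 array, under the level minimum, so its differences from that array hold only as read. At 6.35 on the array labelled STAT4KO, Dna2 lay within 2-fold of the level minimum. Between the arrays labelled KO, 10 of 30 were called lower in Th1, led by Cdc7 (−2.15), Timeless (−2.05), Wdhd1 (−2.05) and Topbp1 (−1.59).

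The remaining enzymes of nucleotide supply did not follow the set so closely. Of 10 other deoxynucleotide enzymes 6 were called lower in wild-type Th1 than in wild-type Th2 (median −1.18), led by Dctd, dCMP deaminase (−2.83), Rrm2b, the other small reductase subunit (−2.07), Dck, deoxycytidine kinase (−1.71), and Shmt2, a mitochondrial folate enzyme (−1.57). On the array labelled STAT6KO, Dck (−1.71) and Mthfd2, of the mitochondrial folate pathway (−1.15), were called lower and Samhd1, which degrades deoxynucleotides, higher (1.62), with a median of 0.12. Of all genes 19.5% were called lower there. For the array labelled STAT4KO, Dctd (1.91) and Rrm2b (1.10) were called higher and none lower, with a median of 0.51. Dctd was at 4.96 on the wild-type Th1 array, under the level minimum. Its differences from that array, and its place first, hold only as read. Between the arrays labelled KO, Dtymk, thymidylate kinase (−1.51), Dctd (−1.34) and Samhd1 (−1.11) were called lower in Th1 (median −0.85).

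Of 14 genes for building the purine and pyrimidine rings, 4 were called lower in wild-type Th1 than in wild-type Th2 (median −0.50). Of all genes 25.4% were called lower there. The 4 were Dhodh (−2.61) and Cad (−1.48) of pyrimidine synthesis and Pfas (−2.08) and Gart (−1.35) of purine synthesis. The same 4 were those called higher on the array labelled STAT4KO than in wild-type Th1, at 1.75, 1.74, 1.21 and 1.58 for Dhodh, Cad, Pfas and Gart. These comparisons share the wild-type Th1 array, so a low value there enters both. Dhodh was at 5.31 on that array, under the level minimum, so these differences of Dhodh hold only as read. For the array labelled STAT6KO only Ctps, CTP synthetase, was called, at 1.14 above wild type, and the median was 0.36. Between the arrays labelled KO, Pfas (−1.45) and Dhodh (−1.19) were called lower in Th1, with a median of −0.27. After quantile normalization the wild-type median of this list was 0.01, so its direction is not fixed.

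Mitosis genes, read for comparison, resembled the set in 2 of the comparisons. Of 19 measured, 18 were called lower in wild-type Th1 than in wild-type Th2 (median −2.43), led by Aurkb (−3.19), a kinase of chromosome segregation, Bub1b (−2.99) of the spindle checkpoint, Cdk1 (−2.94), the mitotic kinase, and Ttk (−2.93), a checkpoint kinase. On the array labelled STAT6KO 16 of 19 were called lower than in wild-type Th2 (median −1.65), led by the spindle factor Tpx2 (−2.43). For the array labelled STAT4KO the median was 0.40, with 15 of 19 above 0 and Cenpf (1.45) and Bub1b (1.16) called higher, where the replication genes had a median of −0.33. The mitosis median there stayed above 0 under each of the 4 other scalings, from 0.16 to 0.78, and each time above that of the replication genes. Between the arrays labelled KO only Bub1 (−1.19) and Cdk1 (−1.06) of 18 were called, with a median of −0.28. Of all genes 10.3% were called lower there. No test of the difference between these lists is possible with 1 array a group.

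**Figure D5:**
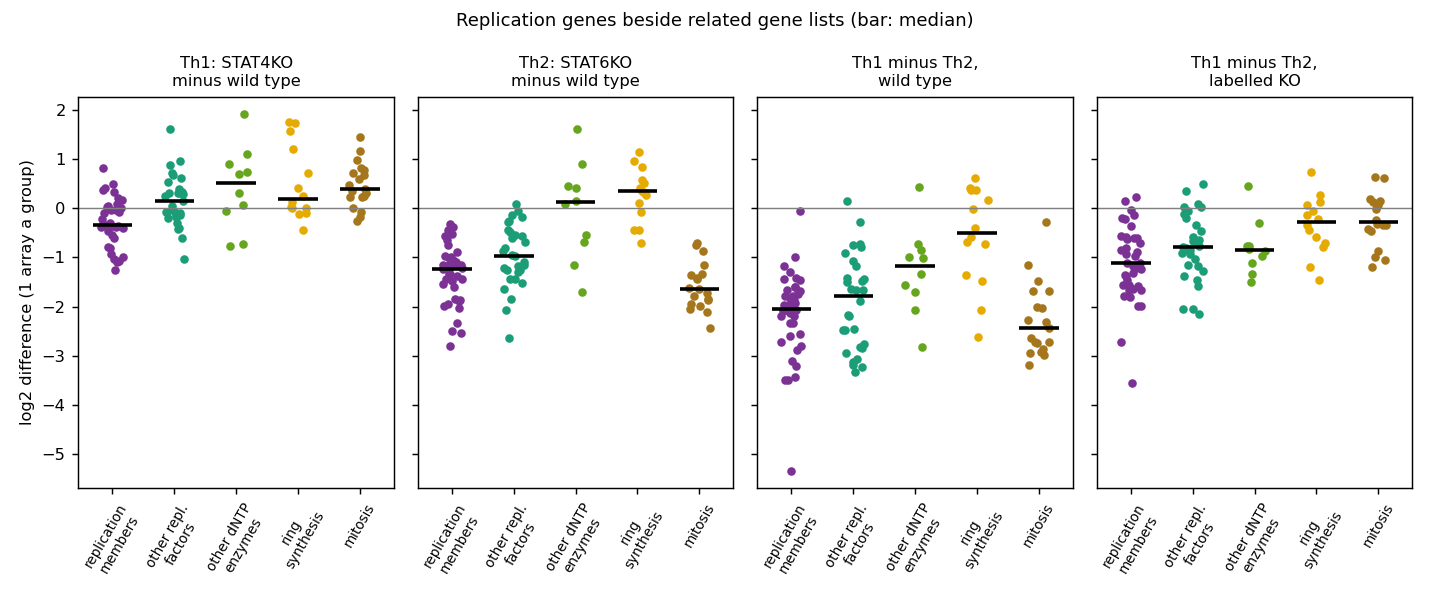
The log2 differences of the replication genes (purple) and of 4 related gene lists in the 4 comparisons, 1 point for each measured gene, with bars at the medians. In the left panel, for the array labelled STAT4KO, the bar of the replication genes is at −0.33 and that of mitosis at 0.40. Both bars are below −1 in the panels for the array labelled STAT6KO and for the wild types.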

How the data were processed

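Log2 expression values per probe set had been made with RMA by the authors and deposited, per the submitters' processing notes. The RMA version, and whether the arrays were normalized together, are not given in the sources used here. The table held 45101 probe sets, 64 of them controls. The platform annotation gave 1 gene for 34945, and symbols were updated through a RefSeq table of GRCm38.p6, which matched 34741. Where a gene had several probe sets, the one brightest on average was used. From these values, log2 differences and counts past 2-fold were computed with pandas 2.3.3 and numpy 2.4.6, loess fits (span 0.4) with statsmodels 0.14.6 and plots with matplotlib 3.10.9. Calling was tested on simulated data. With 1 array a group no test was run, and the number of arrays limits the precision. All 40 members could be named. Values on all 4 arrays are given for the 3 largest differences in each direction and for at least 1 gene of each role. Other single values, and second probe sets, were chosen after their values were seen, as was the comparison of the array labelled STAT6KO with wild-type Th1. Of the related lists, up to 4 called genes with the largest difference were named in each comparison. The members and lists were chosen with earlier results of these data known. Other scalings, probe-set rules, level minimums and fold limits were tried.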

Additional observations from a re-analysis of the deposited data

How the results depend on the processing

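The count of replication genes called lower on the array labelled STAT4KO than in wild-type Th1, 4 as deposited, was the least stable result. It was 8 with arrays centred on the median, 0 with the hybridization controls (and 1 higher), 2 with the mean of a gene's probe sets, 8 with probe sets taken singly and 9 with a 1.5-fold limit (and 1 higher). None of the 4 calls was kept with the hybridization controls or with the mean of probe sets. In the other comparisons, the counts of genes stayed within 1.5 times the reported ones under every scaling, level minimum and limit tried. Taking probe sets singly counts probe sets instead of genes, and gave 52 called lower on the array labelled STAT6KO than in wild-type Th2 and 65 called lower in wild-type Th1 than in wild-type Th2. Between the arrays labelled KO it gave 32 lower and 2 higher. Of the 29 calls for the array labelled STAT6KO, 26 were kept with median centring, 21 with quantile normalization and 20 with the mean of probe sets. The Tyms difference between the arrays labelled KO, −1.98, was 0.04 with the mean of its probe sets, 3 of which were below the level minimum on every array. With values under the level minimum set at it, an alternative added after seeing the data, 37, 29 and 20 genes were called lower between the wild types, for the array labelled STAT6KO and between the arrays labelled KO. No paired analysis was possible because each group has 1 array, and for the same reason none could be left out. Dim probe sets limit what can be read of Cdc6, Tyms and Ccne2 in Th1.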

Other observations

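The regulators of the G1 to S switch were read from lists of their own. Of all genes 25.4% were called lower between the wild types, 19.5% for the array labelled STAT6KO and 10.3% between the arrays labelled KO. Shares called higher were 8.14%, 7.01% and 12.6%. For the array labelled STAT4KO the shares were 5.34% lower and 6.18% higher. Of 12 measured genes of the E2F and RB families, 8 were called lower in wild-type Th1 than in wild-type Th2, with a median of −1.63. The repressor E2Fs led as read, E2f7 at −3.68 and E2f8 at −3.46, followed by the RB relatives Rbl1 at −2.56 and Rbl2 at −2.44. E2f7 was under the level minimum on both Th1 arrays, at 4.69 in wild type and 5.27 on the array labelled STAT4KO. Its differences from Th2 and its place first therefore hold only as read. The array labelled STAT6KO had 7 of 12 called lower than wild-type Th2 (median −1.15), led by Rbl2 at −3.93, with E2f8 at −1.78, the E2F partner Tfdp2 at −1.61 and the activator E2f2 at −1.53. On the array labelled STAT4KO only E2f4 of 11 was called, at 1.26. Between the arrays labelled KO, Rbl2 (1.72) and E2f4 (1.70), which act in resting cells, were called higher in Th1, and E2f7 (−1.97) and Rbl1 (−1.64) were among 3 called lower, with a median of −0.06.

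Among the cyclins, CDKs and CDK inhibitors of G1 and S phase, 7 of 14 were called lower in wild-type Th1 than in wild-type Th2 (median −1.18), led by Cdk6 (−2.43), the inhibitor Cdkn2c (−2.20), Cdk2 (−2.03) and Ccna2 (−1.97), and Myc was called higher (1.29). The inhibitor Cdkn2d was lower on both arrays labelled KO, by −1.83 in Th1 and −2.99 in Th2, as was Cdk2, by −1.12 and −2.47. Cdkn1a, the p21 inhibitor, was called lower on the array labelled STAT4KO (−1.37). On the array labelled STAT6KO Ccnd3 (−2.32) and Ccna2 (−1.52) were also called lower than in wild-type Th2, and Myc (1.18) was called higher.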
